A study of Mus musculus with 79 samples.

Results

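The genes described here are 10 members of the tumour necrosis factor (TNF) superfamily that carry costimulatory signals between immune cells: the ligand genes Tnfsf4, Tnfsf8, Tnfsf11, Tnfsf14 and Cd70, and the receptor genes Tnfrsf4, Tnfrsf8, Tnfrsf9, Tnfrsf18 and Cd27. They were taken by symbol, 10 of 20465 in the deposited expression table, where they stand in capitals as TNFSF4, TNFSF8, TNFSF11, TNFSF14, CD70, TNFRSF4, TNFRSF8, TNFRSF9, TNFRSF18 and CD27. They were followed in T helper 17 (Th17) cells that had been differentiated in culture from mouse T cells carrying the division dye CFSE. IL1b, IL6 and IL23 gave the pathogenic type (Th17p), and TGFb and IL6 the non-pathogenic type (Th17n). Each type was cultured with 20 µM EGCG (epigallocatechin gallate, a green tea catechin) or its solvent DMSO, and with 50 µM DHEA or its solvent methanol. RNA came from cells sorted for exactly 1 division (Div.1) and from unsorted cells (Total). This gave 16 groups of cell type, treatment and sort with 5 libraries each, except Th17p DMSO Div.1 and Th17n DMSO Div.1, which had 4 each. The design text describes 5 mice per condition but ties no library to a mouse, so p-values measure the spread between these libraries. All groups were dye-labelled in vitro cultures, and each group filled part of a single plate row, so compound, dose, solvent and plate position cannot be told apart. The Th17p libraries used stood in rows A to D and the Th17n libraries in rows E to H, and no row held both sorts. Cell type and sort therefore cannot be told apart from plate position either.

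TNF family ligands are mostly trimers on the surface of antigen-presenting and activated lymphoid cells, and their receptors on T cells recruit TRAF adaptors that turn on NF-kB and prolong survival after antigen and CD28 signals. Tnfsf4 encodes OX40 ligand and Tnfrsf4 its receptor OX40. Tnfsf8 and Tnfrsf8 encode CD30 ligand and CD30, and Cd70 encodes the ligand of the receptor encoded by Cd27. Tnfsf11 encodes RANKL, which drives osteoclast formation. Tnfsf14 encodes LIGHT, which binds HVEM (Tnfrsf14) and the lymphotoxin beta receptor (Ltbr). Tnfrsf9 encodes 4-1BB, with its ligand encoded by Tnfsf9, and Tnfrsf18 encodes GITR, with its ligand encoded by Tnfsf18. Th17 cells are known to respond to several of these receptors, OX40, GITR and 4-1BB among them.

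The values were TPM, transcript abundances scaled for transcript length and library size, so levels of different genes can be set side by side. In the 78 libraries used, 9338 to 9845 genes reached 1 TPM. Sequencing depth was unknown, since TPM keep no read counts. The T helper markers Cd3e, Cd3d, Cd3g, Cd4, Cd28 and Lck were present in every library, and so were Il17a and Il17f. Summed markers of CD8 T and NK cells reached at most 33.2 TPM, most of it Cd8b1 and Klrd1, with Ncr1 at 0 in 74 libraries and Cd8a at most at 0.557 TPM. B cell markers summed to at most 5.61 TPM and dendritic cell and macrophage markers to at most 1.99 TPM. Well A4 carried the label Th17n DMSO Div.1 in a stretch of the plate otherwise labelled Th17p DMSO Div.1, and its library entered no group. It held 17.2 TPM of Tnfsf8, for which the Th17p libraries of that treatment and sort held 15.7 to 24.3 TPM and the Th17n libraries 0.428 to 0.457 TPM.

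All 10 members were present in these cultures, over a wide range of levels. Tnfrsf4 was the most abundant in every group, with group means of 272 to 1375 TPM, and Tnfrsf18 was second at 73.6 to 443 TPM. Cd70 was among the scarcest, with group means of 0.327 to 30.9 TPM and a listed value of 0 in 5 of the 78 libraries. The highest group mean lay in EGCG-treated Th17p cells for all 5 ligands and for Tnfrsf4 and Tnfrsf18. It lay in DHEA-treated Th17p cells for Tnfrsf9 and Cd27, and in DMSO-treated Th17p cells for Tnfrsf8. When the 16 groups were ordered by mean, most neighbours in that order could not be separated. For Tnfsf8, 5 of the 15 neighbouring pairs had ranges that did not overlap, for Tnfrsf9 4, for Tnfrsf8 and Tnfrsf18 3 each, for Tnfsf4 and Tnfsf11 2 each, for Cd70 and Tnfrsf4 1 each, and for Tnfsf14 and Cd27 0.

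**Figure D1:**
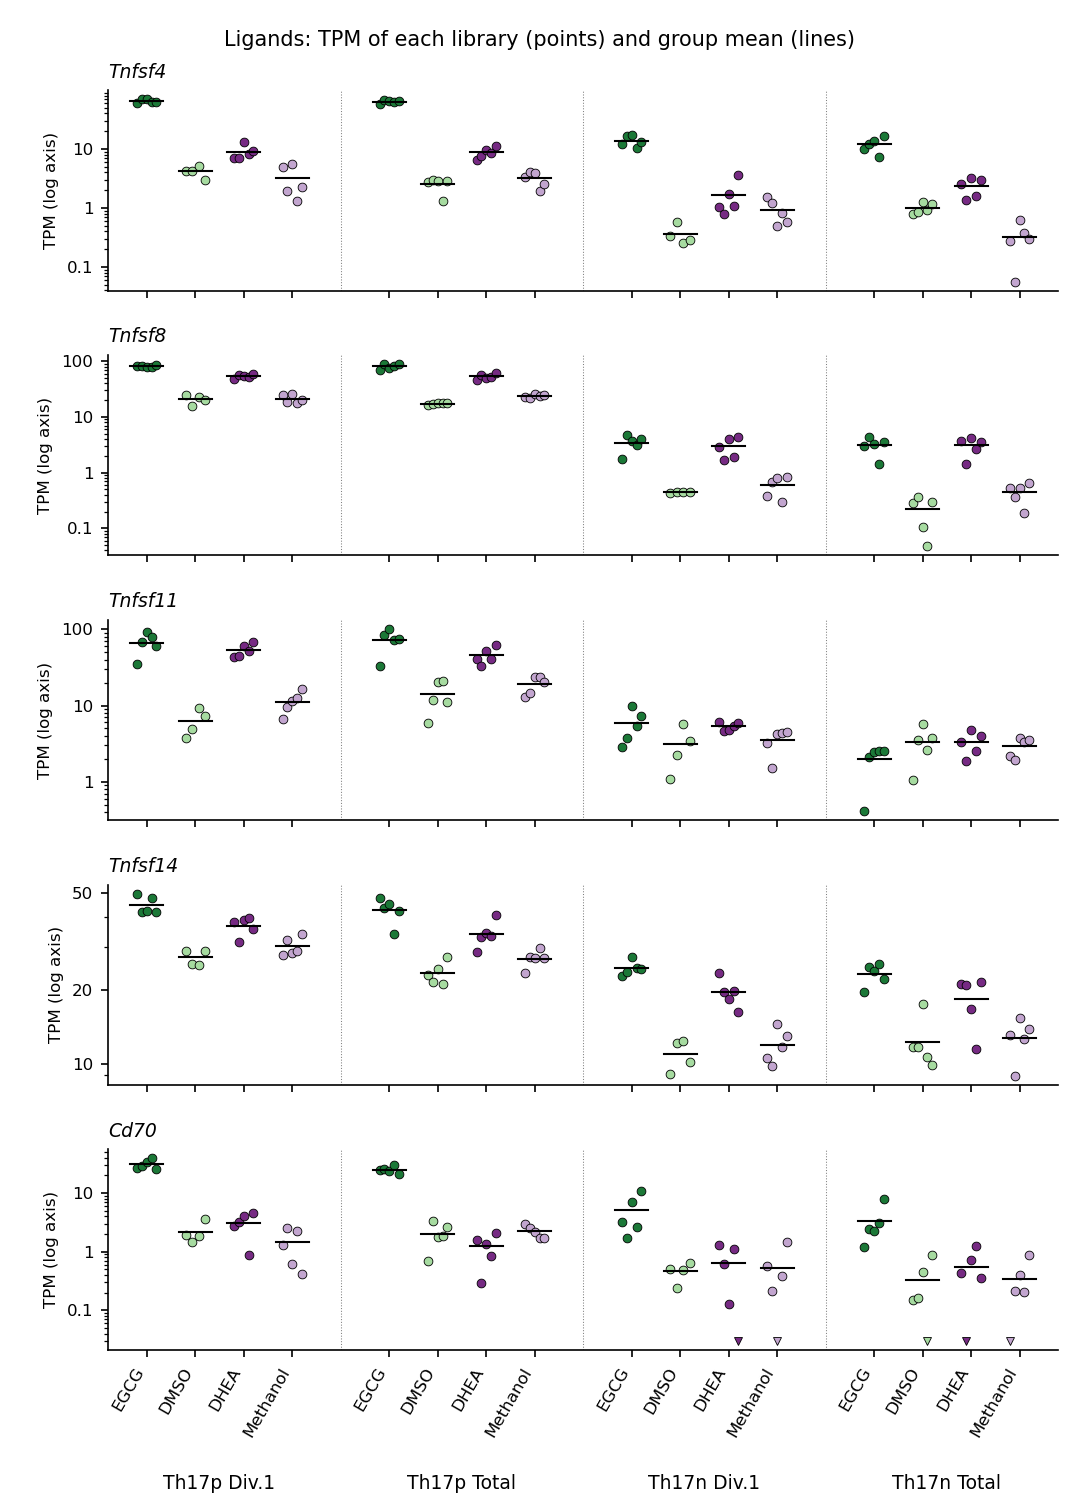
TPM of the 5 ligand genes in each library (log axis), by cell type, sort and treatment. Points are libraries, lines are group means and triangles at the bottom mark Cd70 libraries listed at 0. In Th17p cells every EGCG library lies above every DMSO library for all 5 ligands.

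**Figure D2:**
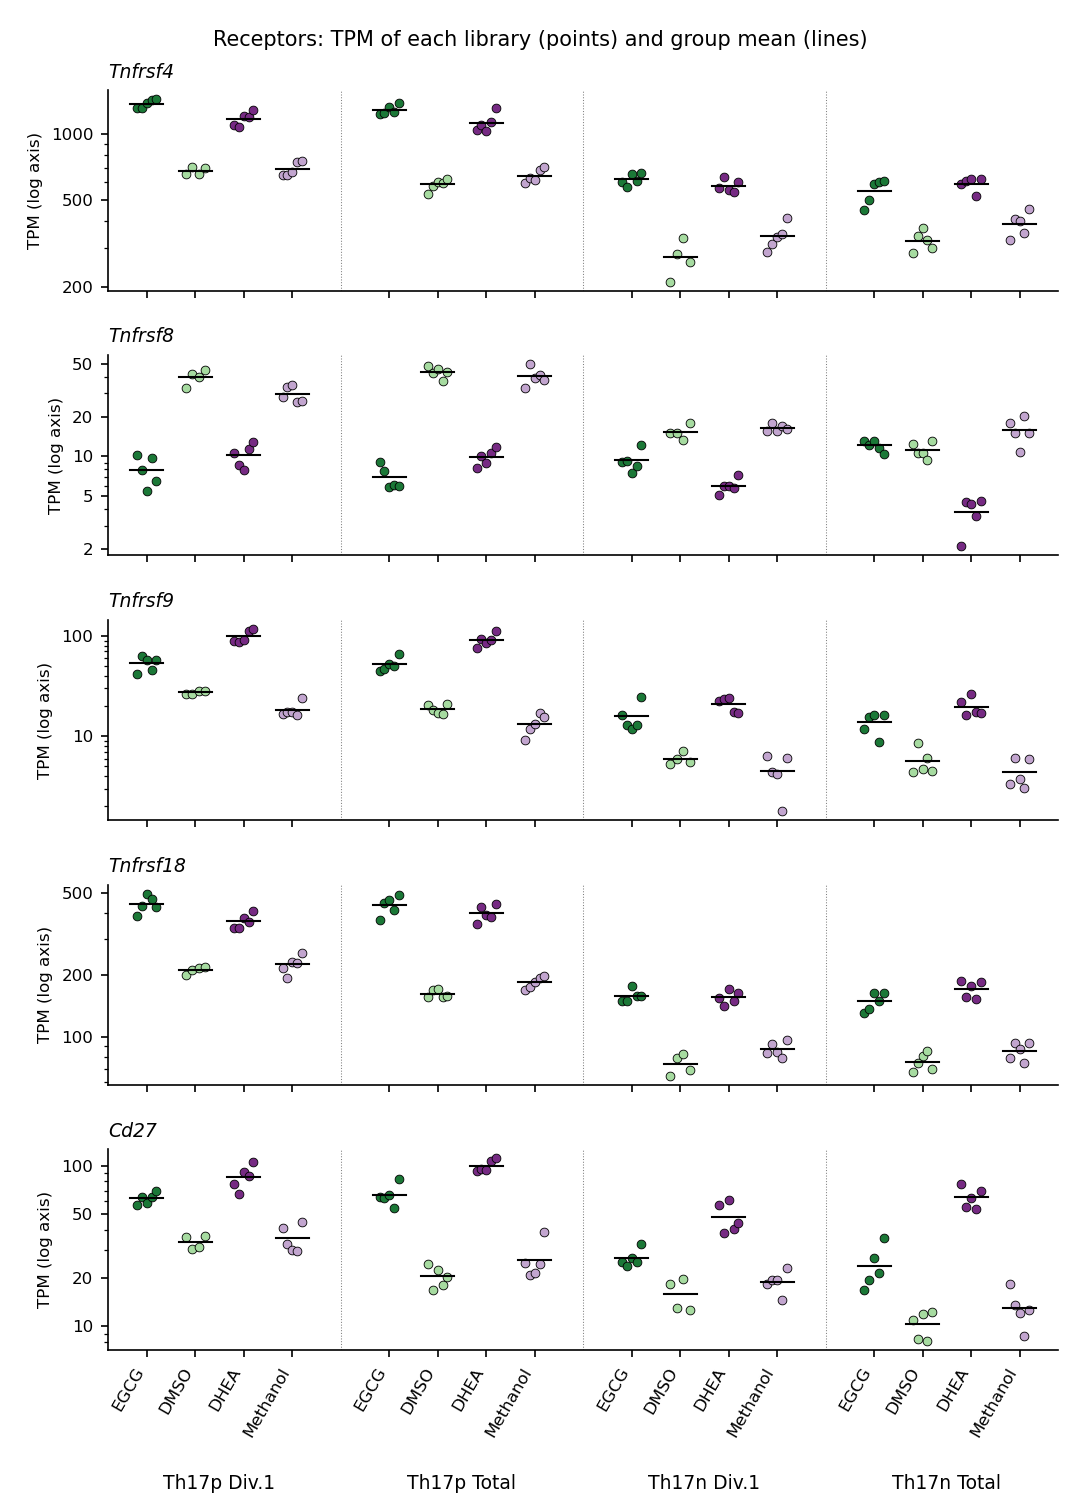
TPM of the 5 receptor genes in each library (log axis), arranged as for the ligands, with lines at group means. Tnfrsf8 is the receptor that is lower with either compound in Th17p cells, and Tnfrsf9 and Cd27 stand highest with DHEA.

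Every member was higher in Th17p than in Th17n cells when both were given solvent only. Under limma, which fits all genes together, on log2(TPM + 1), 10 of 10 members were called higher at an adjusted p under 0.05 in Div.1 cells, where 34.9% of the 10672 genes tested were called higher and 25.7% lower. In Total cells 10 of 10 were called higher, and of all genes 30.9% higher and 26.5% lower. The median member was 1.22 higher on the log2 scale in Div.1 cells, where the median of all genes was 0.04, and 1.22 higher in Total cells, where it was 0.02. Tnfsf8 had the largest difference of the 10, 3.85 ± 0.12 (SE, limma adjusted p = 1.31e-39) in Div.1 and 4.01 ± 0.11 (SE, limma adjusted p = 2.95e-42) in Total cells. In Total cells with DMSO it stood at 16.3, 17.1, 17.5, 17.5 and 18.005 TPM in Th17p, against 0.2797, 0.371, 0.104, 0.0474 and 0.298 TPM in Th17n cells. With methanol it stood at 23.01, 21.8, 25.95, 23.8 and 24.9 TPM in Th17p Total, against 0.522, 0.369, 0.534, 0.1905 and 0.651 TPM in Th17n Total cells. For Tnfsf8 in Total cells, neither solvent's libraries overlapped between the cell types. The other 9 differences lay between 0.86 (Cd70) and 1.95 (Tnfrsf9) in Div.1 cells, and between 0.80 (Tnfrsf4) and 2.06 (Tnfsf11) in Total cells. Libraries of some of these members did overlap between the cell types. With DMSO, Tnfsf11 in Div.1 cells ran over 3.76 to 9.25 TPM in Th17p and 1.09 to 5.77 TPM in Th17n. Cd70 in Total cells with DMSO ran over 0.696 to 3.28 TPM in Th17p and 0 to 0.870 TPM in Th17n. With methanol, Tnfsf4 in Div.1 cells ran over 1.30 to 5.48 TPM in Th17p and 0.499 to 1.52 TPM in Th17n. Because 1 is added before the log, differences of genes at low TPM, Tnfsf4, Tnfsf8, Tnfsf11 and Cd70 in Th17n cells among them, are understated.

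With either compound most members rose against the solvent, and in the fit of 16 group means Tnfrsf8 was the only member that fell. Of the 80 results that 10 members give in the 8 compound comparisons, 63 were called higher and 7 lower, and all 7 lower results were Tnfrsf8. With EGCG in Th17p Div.1 cells, 9 members rose and 1 fell, beside 33.7% of all genes called higher and 11.9% called lower. The counts were again 9 and 1 in Th17p Total cells, beside 30.1% and 14.9% of all genes. They were 8 and 1 in Th17n Div.1 cells, beside 28.1% and 6.77%, and 8 and 0 in Th17n Total cells, beside 21.7% and 13.5%. DHEA raised 8 and lowered 1 in Th17p Div.1 cells, where 18.1% of all genes rose and 19.2% fell, and the counts were the same in Th17p Total cells, where 20.9% rose and 26.8% fell. In Th17n cells DHEA raised 6 and lowered 1 in Div.1, beside 22.1% and 14.6% of all genes, and raised 7 and lowered 1 in Total, beside 20.8% and 25.3%. The members' median change with EGCG was 1.04 in Th17p Div.1, 1.54 in Th17p Total, 1.16 in Th17n Div.1 and 1.04 in Th17n Total cells. Over all genes tested it was 0.12, 0.09, 0.11 and 0.05 in the same order. With DHEA the members' median was 1.00, 1.12, 0.73 and 0.81, and that of all genes 0.00, -0.02, 0.05 and -0.01.

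**Figure D3:**
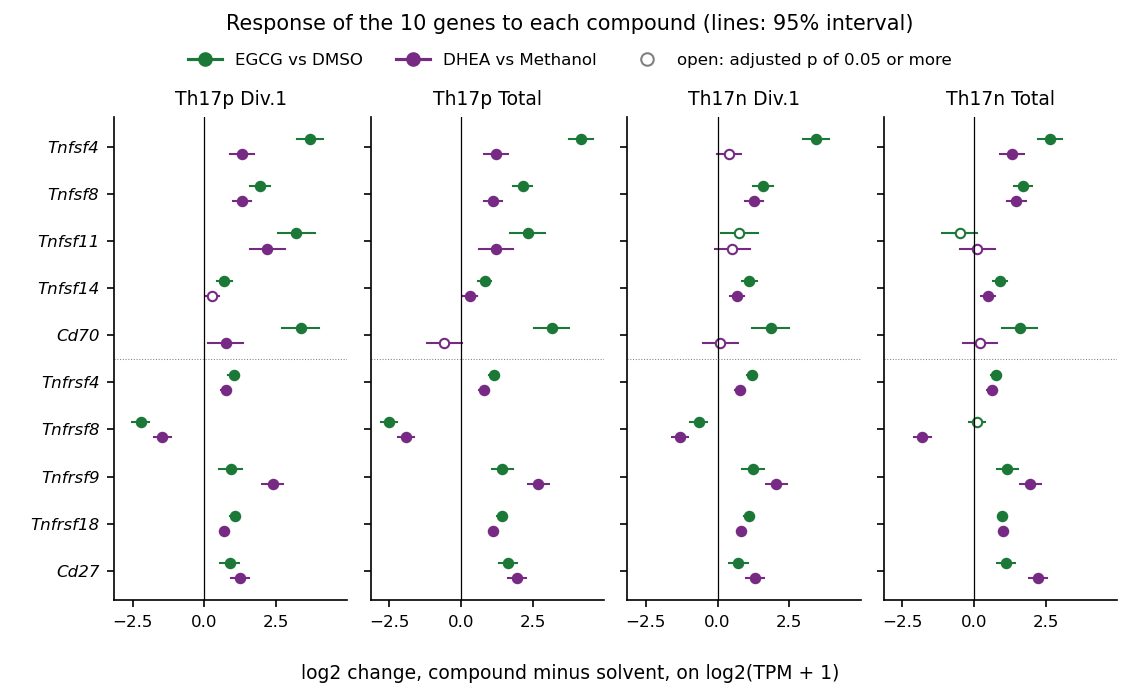
Log2 change of each member with EGCG against DMSO and with DHEA against methanol, in each cell type and sort, with its 95% interval from limma. Filled points are called at an adjusted p under 0.05. Tnfrsf8 lies below 0 except with EGCG in Th17n Total cells, where its change of 0.11 was not called.

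Rescaling each library by the median ratio of its genes moved the median EGCG change of all genes by -0.10 in Th17p Div.1 and by -0.11 in Th17n Div.1 cells. With it, the share of called genes that were higher with EGCG moved to 52.02% from 73.9% in Th17p Div.1, to 52.6% from 66.9% in Th17p Total, to 49.6% from 80.6% in Th17n Div.1 and to 49.9% from 61.7% in Th17n Total cells. No member's call in the 8 compound comparisons changed direction or was lost under this rescaling. Marker sums moved with the treatments too, and their part in the members' changes was not tested. The sum of the Th17 markers Il17a, Il17f and Il23r was lower with either compound in Th17p cells. In Th17p Total cells they summed to 122 to 389.7 TPM with EGCG against 1927 to 2779 TPM with DMSO, and to 98.99 to 288 TPM with DHEA against 1301 to 1926 TPM with methanol. In Th17n cells they did not follow the same course with EGCG: they were higher in Div.1, at 7348 to 8485 TPM against 3506 to 4425 TPM with DMSO, and overlapped in Total, at 6002 to 7469 TPM against 6397 to 7769 TPM. DHEA libraries of Th17n Total cells held 704 to 1384 TPM of them, against 4432 to 5802 TPM with methanol. The sum of the 6 T helper markers was higher with either compound in both cell types and sorts, without overlap. In Th17p Total cells it was 1728 to 1879 TPM with EGCG against 1322 to 1397 TPM with DMSO, and 1811 to 1963 TPM with DHEA against 1413 to 1566 TPM with methanol. B cell markers summed to 2.32 to 5.61 TPM with DHEA in Th17n Total cells against 1.07 to 1.89 TPM with methanol, and to 1.205 to 2.82 TPM against 0.445 to 1.09 TPM in Th17p Total cells. Markers of CD8 T and NK cells summed to 18.98 to 28.1 TPM with DHEA against 7.63 to 11.7 TPM with methanol in the same cells, with Ncr1 and Klrb1c at 0 in both groups. In bulk RNA, fewer cells of a type and less RNA per cell cannot be told apart, and this holds for every difference given here.

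Tnfsf4, the OX40 ligand gene, rose further on log2(TPM + 1) with EGCG than any other ligand in Total cells of either type. In Th17n Total cells that order depends on the 1 added before the log. Tnfsf4 means there were 11.9 TPM with EGCG and 0.997 TPM with DMSO, and Tnfsf8 means 3.09 and 0.22 TPM. In Th17p Div.1 cells Tnfsf4 stood at 59.3, 69.6, 69.4, 61.4 and 62.8 TPM with EGCG, against 4.25, 4.15, 5.16 and 3.03 TPM with DMSO. Its Th17p Total levels were 57.1, 66.9, 64.3, 61.7 and 63.6 TPM with EGCG, against 2.79, 2.97, 2.83, 1.32 and 2.86 TPM with DMSO. The lowest EGCG library was more than 10 times the highest DMSO library in both sorts, and the log2 changes were 3.68 ± 0.22 (SE, limma adjusted p = 1.45e-22) in Div.1 and 4.19 ± 0.21 (SE, limma adjusted p = 1.33e-26) in Total cells. Th17n cells held less. With EGCG they had 12.004, 16.3, 16.9, 10.4 and 13.1 TPM in Div.1, against 0.329, 0.5696, 0.251 and 0.281 TPM with DMSO. Th17n Total cells held 10.1, 11.9, 13.4, 7.33 and 16.6 TPM with EGCG, against 0.774, 0.856, 1.27, 0.919 and 1.16 TPM with DMSO. Again no EGCG library overlapped a DMSO library, and the changes were 3.42 (limma adjusted p = 3.03e-20) and 2.65 (limma adjusted p = 1.12e-16). DHEA moved Tnfsf4 less. With DHEA the means were 8.84 ± 2.5001 TPM in Th17p Div.1 and 8.69 ± 1.87 TPM in Th17p Total cells (SD, n = 5 each), against 3.21 ± 1.898 and 3.17 ± 0.902 TPM with methanol. The changes with DHEA were 1.31 (limma adjusted p = 6.21e-07) in Th17p Div.1, 1.22 (limma adjusted p = 1.27e-06) in Th17p Total and 1.30 (limma adjusted p = 3.66e-07) in Th17n Total cells. In Th17n Div.1 cells the change of 0.40 (limma adjusted p = 0.129) did not pass, with 95% limits of -0.02 to 0.82.

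Tnfrsf4, the OX40 gene, rose in all 8 compound comparisons with no overlap between the libraries. In Th17p Div.1 cells its level was 1311, 1308, 1382, 1433 and 1443 TPM with EGCG, against 654, 708, 655 and 697 TPM with DMSO. The level in Th17p Total cells was 1229.8, 1247, 1322, 1256 and 1390.0 TPM with EGCG, against 531, 580.0, 604, 597 and 624 TPM with DMSO. That is 2.03 and 2.19 times the DMSO mean, with log2 changes of 1.02 ± 0.09 (SE, limma adjusted p = 2.40e-15) and 1.13 ± 0.08 (SE, limma adjusted p = 1.70e-18). In Th17n cells EGCG gave 572 to 661 TPM in Div.1, against 211 to 335 TPM with DMSO, and 447 to 608 TPM in Total, against 286 to 370.2 TPM with DMSO. DHEA brought Th17p cells to 1077 to 1293 TPM in Div.1, against 648 to 750.3 TPM with methanol, and to 1029 to 1315 TPM in Total, against 593 to 706 TPM with methanol. The DHEA changes were 0.76 and 0.80 in Th17p Div.1 and Total, and 0.77 and 0.61 in Th17n Div.1 and Total cells (largest limma adjusted p = 7.23e-09). Receptor stayed above ligand in every library. The median ratio of Tnfrsf4 to Tnfsf4 in Th17p Total cells was 20.6 with EGCG, against 214 with DMSO.

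Cd70, whose product is the ligand of CD27, separated the compounds. With EGCG it stood at 26.8, 28.9, 33.9, 38.8 and 26.1 TPM in Th17p Div.1 cells, against 1.89, 1.44, 1.82 and 3.57 TPM with DMSO. Th17p Total cells held 24.9, 25.3, 23.8, 29.7 and 21.5 TPM with EGCG, against 0.696, 3.28, 1.74, 1.83 and 2.59 TPM with DMSO. The groups did not overlap in either sort, and the changes were 3.35 ± 0.32 (SE, limma adjusted p = 5.82e-14) and 3.16 ± 0.30 (SE, limma adjusted p = 5.28e-14). In Th17n cells EGCG libraries ran over 1.73 to 10.6 TPM in Div.1, against 0.242 to 0.645 TPM with DMSO, and over 1.203 to 7.81 TPM in Total, against 0 to 0.8703 TPM with DMSO, with changes of 1.84 (limma adjusted p = 4.05e-06) and 1.58 (limma adjusted p = 2.79e-05). DHEA libraries overlapped methanol libraries in every cell type and sort. Cd70 in Th17p Total cells stood at 1.58, 0.295, 1.34, 0.828 and 2.11 TPM with DHEA, against 2.99, 2.56, 2.18, 1.703 and 1.699 TPM with methanol, a change of -0.58 (limma adjusted p = 0.1103) with 95% limits of -1.18 to 0.03, which passed on the compared groups alone (adjusted p = 0.0464) and without well columns 1 and 10 (-0.77 (limma adjusted p = 0.0418)). The change in Th17p Div.1 cells, 0.75 (limma adjusted p = 0.04396), passed, but it was lost when any of 7 of the 10 libraries was left out (adjusted p up to 0.157) and under 5 of the 7 processing alternatives (adjusted p up to 0.293).

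Cd27 rose in all 8 compound comparisons, also without overlap, and its higher levels came with DHEA. DHEA gave 77.03, 66.6, 91.6, 86.3 and 106 TPM in Th17p Div.1 cells, against 40.99, 32.7, 30.1, 29.4 and 44.9 TPM with methanol. The Th17p Total libraries held 93.5, 95.2, 93.6, 108 and 111 TPM with DHEA, against 24.7, 20.97, 21.5, 24.5 and 38.5 TPM with methanol. These are changes of 1.24 ± 0.16 (SE, limma adjusted p = 1.86e-09) and 1.94 ± 0.16 (SE, limma adjusted p = 9.40e-17). In Th17n cells the DHEA libraries held 38.4 to 61.1 TPM in Div.1, against 14.6 to 23.003 TPM with methanol, and 53.9 to 77.1 TPM in Total, against 8.75 to 18.3 TPM with methanol, changes of 1.29 (limma adjusted p = 5.91e-10) and 2.22 (limma adjusted p = 3.89e-19). With EGCG the Th17p means were 62.7 ± 4.799 TPM in Div.1 (n = 5) and 66.2 ± 10.5 TPM in Total (n = 5), against 33.5 ± 3.16 (n = 4) and 20.5 ± 3.11 TPM (n = 5) with DMSO (all SD). The EGCG changes were 0.89 (limma adjusted p = 1.07e-05), 1.65 (limma adjusted p = 5.96e-14), 0.72 (limma adjusted p = 0.0004297) and 1.11 (limma adjusted p = 6.01e-08) in Th17p Div.1, Th17p Total, Th17n Div.1 and Th17n Total cells.

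The CD30 pair moved in opposite directions. Tnfsf8, the ligand gene, was at 81.7, 81.2, 78.1, 78.7 and 85.7 TPM in Th17p Div.1 cells with EGCG, against 24.3, 15.7, 23.2 and 19.8 TPM with DMSO. Th17p Total cells had it at 70.04, 88.1, 73.98, 80.7 and 89.1 TPM with EGCG, against the 5 DMSO values given above. No libraries overlapped, and the changes were 1.93 ± 0.17 (SE, limma adjusted p = 2.58e-15) and 2.15 ± 0.16 (SE, limma adjusted p = 1.91e-18). DHEA gave 47.3 to 58.5 TPM in Th17p Div.1, against 17.6 to 25.5 TPM with methanol, and 45.1 to 61.8 TPM in Th17p Total, against 21.8 to 25.95 TPM with methanol, changes of 1.31 (limma adjusted p = 6.50e-10) and 1.11 (limma adjusted p = 2.26e-08). Th17n cells stayed at low levels, with means of 3.45 and 3.09 TPM in EGCG-treated Div.1 and Total cells, against 0.446 and 0.2199 TPM with DMSO. Their changes were 1.58 and 1.71 with EGCG and 1.26 and 1.47 with DHEA, in Div.1 and Total cells (largest limma adjusted p = 1.88e-09).

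Tnfrsf8, which encodes CD30 itself, fell in 7 of the 8 comparisons. In Th17p Div.1 cells it stood at 10.2, 7.84, 5.48, 9.66 and 6.51 TPM with EGCG, against 33.1, 42.04, 39.9 and 45.1 TPM with DMSO. The Th17p Total levels were 9.04, 7.73, 5.84, 6.08 and 6.004 TPM with EGCG, against 48.2, 42.7, 45.5, 37.3 and 43.4 TPM with DMSO. The highest EGCG library lay far below the lowest DMSO library in both sorts, and the changes were -2.22 ± 0.15 (SE, limma adjusted p = 1.95e-20) and -2.50 ± 0.14 (SE, limma adjusted p = 2.76e-24). With DHEA, Th17p Div.1 libraries held 10.7, 8.599, 7.84, 11.4 and 12.8 TPM, against 28.3, 33.5, 34.9, 25.9 and 26.04 TPM with methanol. Th17p Total libraries held 8.25, 10.1, 8.87, 10.6 and 11.9 TPM with DHEA, against 32.8, 49.9, 39.2, 41.5 and 37.6 TPM with methanol. These groups did not overlap either, with changes of -1.46 ± 0.14 (SE, limma adjusted p = 2.77e-13) and -1.91 ± 0.14 (SE, limma adjusted p = 1.04e-18). In Th17n Total cells the compounds parted: EGCG libraries stood at 13.2, 12.3, 13.02, 11.6 and 10.4 TPM, against 12.4, 10.6, 10.6, 9.38 and 13.1 TPM with DMSO. DHEA libraries of the same cells stood at 2.096, 4.51, 4.35, 3.56 and 4.62 TPM, against 17.9, 14.95, 10.7, 20.3 and 15.1 TPM with methanol. EGCG and DMSO libraries overlapped, with a change of 0.11 (limma adjusted p = 0.595) and 95% limits of -0.17 to 0.39, while the DHEA change was -1.80 (limma adjusted p = 1.78e-17). In Th17n Div.1 cells the changes were -0.67 (limma adjusted p = 0.000266) with EGCG and -1.32 (limma adjusted p = 8.11e-12) with DHEA.

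The order of ligand and receptor transcripts turned round in Th17p cells. Tnfsf8 was above Tnfrsf8 in 5 of 5 EGCG and 5 of 5 DHEA libraries of each sort, against 0 of the DMSO and methanol libraries. For Th17p Total cells the median of Tnfrsf8 over Tnfsf8 was 0.0789 with EGCG against 2.50 with DMSO, and 0.183 with DHEA against 1.51 with methanol. In Th17n cells Tnfsf8 was above Tnfrsf8 in 1 DHEA Total library and in 0 of the libraries of the other 7 groups.

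**Figure D4:**
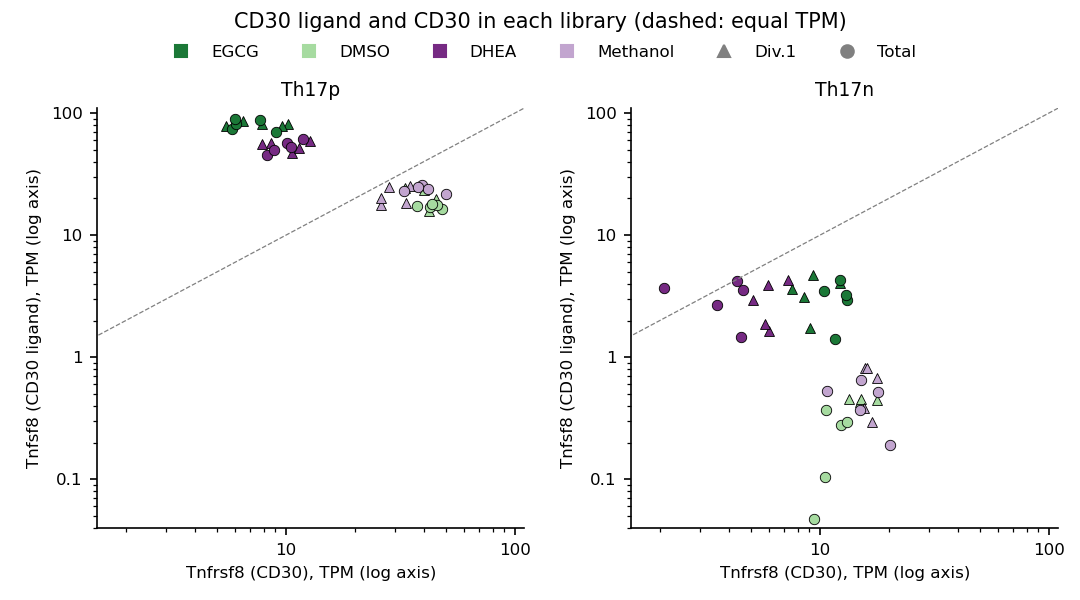
Tnfsf8 (CD30 ligand) against Tnfrsf8 (CD30) in TPM, 1 point per library on log axes, with Th17p and Th17n cells in separate panels. Libraries of Th17p cells with EGCG or DHEA lie where ligand exceeds receptor, and those with DMSO or methanol where receptor exceeds ligand.

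Tnfsf11, which encodes RANKL, rose with both compounds in Th17p cells. It was not called in Th17n cells in the fit of 16 group means with all 78 libraries and no replicate block. With EGCG it stood at 35.3, 67.7, 91.9, 78.2 and 59.8 TPM in Th17p Div.1 cells, against 3.76, 4.98, 9.25 and 7.21 TPM with DMSO. With EGCG it stood at 33.1, 84.8, 102, 71.8 and 74.01 TPM in Th17p Total cells, against 5.88, 11.99, 20.2, 21.3 and 11.3 TPM with DMSO. Both pairs of groups were apart, although the libraries within a group differed widely, and the changes were 3.20 ± 0.32 (SE, limma adjusted p = 4.06e-13) and 2.32 ± 0.30 (SE, limma adjusted p = 1.95e-09). DHEA gave 43.4, 44.997, 60.4, 52.1 and 68.5 TPM in Th17p Div.1 cells, against 6.66, 9.49, 11.4, 12.5 and 16.5 TPM with methanol. It gave 33.3 to 61.6 TPM in Th17p Total cells, against 13.04 to 23.8 TPM with methanol. The changes were 2.19 (limma adjusted p = 2.06e-08) and 1.22 (limma adjusted p = 0.000586). In Th17n Div.1 cells EGCG libraries held 2.82 to 9.95 TPM, against 1.09 to 5.77 TPM with DMSO (0.76 (limma adjusted p = 0.0613), 95% limits 0.11 to 1.40). Leaving out single libraries, the number of members called in that comparison ran from 9 to 10, so Tnfsf11 passed without some library. In Th17n Total cells EGCG libraries held 0.411, 2.12, 2.44, 2.52 and 2.56 TPM, against 1.06, 3.56, 5.76, 2.64 and 3.71 TPM with DMSO, a change of -0.50 (limma adjusted p = 0.201) with 95% limits of -1.11 to 0.11. In Th17n Div.1 cells DHEA libraries held 4.599 to 6.02 TPM, against 1.53 to 4.52 TPM with methanol, without overlap. With DHEA the Th17n changes were 0.52 (limma adjusted p = 0.188) in Div.1 and 0.10 (limma adjusted p = 0.812) in Total cells. The transcript of RANK, the receptor of RANKL (Tnfrsf11a), was scarcely present, at group means of 0.0421 to 0.166 TPM, and was not tested.

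Tnfsf14, which encodes LIGHT, rose with EGCG in all 4 comparisons without overlap and by smaller steps. Its level was 41.8 to 49.7 TPM with EGCG in Th17p Div.1 cells, against 25.2 to 29.04 TPM with DMSO. Th17p Total cells held 47.5, 43.2, 45.2, 33.8 and 42.4 TPM with EGCG, against 23.05, 21.6, 24.4, 21.2 and 27.3 TPM with DMSO. The EGCG changes were 0.69 (limma adjusted p = 6.89e-06) in Th17p Div.1, 0.82 (limma adjusted p = 4.32e-08) in Th17p Total, 1.11 (limma adjusted p = 1.12e-10) in Th17n Div.1 and 0.89 (limma adjusted p = 1.78e-08) in Th17n Total cells. DHEA changed it by 0.68 (limma adjusted p = 5.67e-06) in Th17n Div.1 and 0.48 (limma adjusted p = 0.000678) in Th17n Total cells. For Th17p Total cells the DHEA change of 0.32 (limma adjusted p = 0.0249) was lost under 2 of the 7 processing alternatives (adjusted p up to 0.118), without DHEA replicate 10 (adjusted p = 0.0982) or without methanol replicate 6 (adjusted p = 0.0772), and that of 0.27 (limma adjusted p = 0.0753) in Th17p Div.1 cells did not pass. Of the receptors of LIGHT, Tnfrsf14 was present at group means of 11.2 to 30.8 TPM and passed in 1 of the 8 compound comparisons, DHEA in Th17n Total cells (1.10 (limma adjusted p = 0.00897)). Ltbr reached at most a group mean of 0.301 TPM and was not tested.

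Tnfrsf9, the 4-1BB gene, rose in all 8 compound comparisons without overlap, and further with DHEA. DHEA libraries of Th17p Div.1 cells stood at 88.4, 87.8, 91.9, 112 and 118 TPM, against 16.6, 17.6, 17.3, 16.4 and 24.3 TPM with methanol. DHEA libraries of Th17p Total cells stood at 75.96, 92.2, 84.5, 91.5 and 111 TPM, against 9.09, 11.7, 13.4, 17.1 and 15.6 TPM with methanol. The mean with DHEA was 5.401 and 6.81 times that with methanol, with log2 changes of 2.38 ± 0.19 (SE, limma adjusted p = 5.66e-17) and 2.70 ± 0.19 (SE, limma adjusted p = 4.90e-20). EGCG libraries of Th17p cells held 42.2 to 62.8 TPM in Div.1, against 26.2 to 28.4 TPM with DMSO, and 45.1 to 66.2 TPM in Total, against 16.6 to 20.9 TPM with DMSO. Those changes were 0.92 (limma adjusted p = 7.88e-05) and 1.43 (limma adjusted p = 1.28e-09). In Th17n Div.1 and Total cells the changes were 1.23 and 1.15 with EGCG, and 2.05 and 1.96 with DHEA (largest limma adjusted p = 1.08e-06). The ligand gene Tnfsf9 showed another pattern. It rose with EGCG in all 4 comparisons, by 1.02 (limma adjusted p = 2.07e-08) and 0.65 (limma adjusted p = 6.29e-05) in Th17p Div.1 and Total and by 1.57 and 1.10 in Th17n Div.1 and Total cells. With DHEA it passed in Th17n cells, by 1.13 (limma adjusted p = 5.13e-10) in Div.1 and 0.78 (limma adjusted p = 2.11e-06) in Total, and not in Th17p cells, where the change was 0.27 (limma adjusted p = 0.112) in Div.1 and 0.15 (limma adjusted p = 0.402) in Total.

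Tnfrsf18, the GITR gene, followed Tnfrsf4 closely. In Th17p Div.1 cells it stood at 386, 435, 498, 469 and 426 TPM with EGCG, against 199.6, 212, 217 and 219 TPM with DMSO. The Th17p Total values were 369, 449.6, 461, 416 and 489 TPM with EGCG, against 156, 169, 171, 156 and 159 TPM with DMSO. No library overlapped in any of its 8 compound comparisons, and these changes were 1.06 ± 0.08 (SE, limma adjusted p = 2.50e-17) and 1.42 ± 0.08 (SE, limma adjusted p = 1.25e-24). DHEA gave 337 to 409.6 TPM in Th17p Div.1, against 194 to 256 TPM with methanol, and 354 to 444 TPM in Th17p Total, against 169 to 197 TPM with methanol, changes of 0.70 (limma adjusted p = 5.30e-11) and 1.12 (limma adjusted p = 1.42e-19). In Th17n Div.1 and Total cells it changed by 1.10 and 0.97 with EGCG and by 0.83 and 1.00 with DHEA (largest limma adjusted p = 9.95e-14). The ratio of Tnfrsf4 to Tnfrsf18 stayed within 2.56 and 4.86 over the 78 libraries, with a median of 3.44. Across the 16 group means of log2(TPM + 1) their Pearson correlation was 0.99, a description over groups that share cell type, solvent and plate. The transcript of the GITR ligand (Tnfsf18) was at most at a group mean of 0.0645 TPM and was not tested.

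Several members are neighbours in the mouse genome (mm10, GENCODE annotation). Tnfrsf4 (chr4:156013843-156016612, plus strand) and Tnfrsf18 (chr4:156026164-156028895, plus strand) lie 9552 bases apart. Tnfrsf8 (chr4:145267137-145315164, minus strand), Tnfrsf9 (chr4:150914562-150946102, plus strand) and Tnfsf8 (chr4:63831308-63861347, minus strand) are on the same chromosome. On chromosome 17, Tnfsf14 (chr17:57189492-57194177), Cd70 (chr17:57145997-57149777, both minus strand) and Tnfsf9 (chr17:57105325-57107757, plus strand) follow each other with gaps of 39715 and 38240 bases. Tnfsf4 is at chr1:161395409-161418410 (plus strand), Tnfsf11 at chr14:78277445-78308043 (minus strand) and Cd27 at chr6:125232622-125237010 (minus strand).

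The stretches before the gene starts of the neighbours Tnfrsf4 and Tnfrsf18, which moved together, and of Tnfrsf8, which moved the other way, are printed here. Tnfrsf9, also a chromosome 4 receptor gene, rose in all 8 compound comparisons as well and is not printed. They are RefSeq sequence of GRCm38.p6, 5′ to 3′ on the gene's strand, for Tnfrsf4 at chr4:156013445-156013694 (plus), Tnfrsf18 at chr4:156026072-156026163 (plus) and Tnfrsf8 at chr4:145315165-145315414 (minus). Capitals mark matches, on either strand, to the NFAT core GGAAA, to the AP-1 element TGANTCA or to a kappaB element.
Tnfrsf4: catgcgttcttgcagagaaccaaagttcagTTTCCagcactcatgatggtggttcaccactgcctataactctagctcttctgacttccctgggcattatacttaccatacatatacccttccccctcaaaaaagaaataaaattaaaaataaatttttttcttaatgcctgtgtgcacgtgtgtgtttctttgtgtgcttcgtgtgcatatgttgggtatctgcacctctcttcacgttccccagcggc
Tnfrsf18: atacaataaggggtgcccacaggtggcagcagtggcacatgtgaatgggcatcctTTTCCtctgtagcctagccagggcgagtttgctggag
Tnfrsf8: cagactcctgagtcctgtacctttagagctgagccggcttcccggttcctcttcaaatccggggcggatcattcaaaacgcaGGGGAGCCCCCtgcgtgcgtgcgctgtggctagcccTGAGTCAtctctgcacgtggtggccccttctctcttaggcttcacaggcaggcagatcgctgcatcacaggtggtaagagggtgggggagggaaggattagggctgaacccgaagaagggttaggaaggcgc
The Tnfrsf4 stretch held 1 NFAT core, and so did the shorter Tnfrsf18 stretch, while the whole 250-base window of Tnfrsf18 held 2. The Tnfrsf8 stretch held 1 AP-1 element and 2 overlapping kappaB matches, and 0 NFAT cores. Of 32536 promoter windows of 250 bases, 55.7% held an NFAT core, 6.73% an AP-1 element and 7.28% a kappaB element. RefSeq windows were found for 8 of the 10 members, Tnfsf4 and Cd70 not among them. For Tnfrsf9, 1 window held 1 AP-1 element, 2 kappaB matches and 3 NFAT cores, and another held 0, 0 and 2. The Tnfsf14 window held 1 AP-1 element, 0 kappaB matches and 3 NFAT cores. The windows of Tnfsf8, Tnfsf11 and Cd27 held 1 NFAT core each, with 0 AP-1 and 0 kappaB matches. So AP-1 and kappaB matches were also found before genes that rose. A match is a run of letters and not a measured binding site.

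The response to EGCG and the response to DHEA, each taken against its own solvent, differed for several members. In Th17p Div.1 cells the EGCG response minus the DHEA response was called above 0 for 4 members and below 0 for 2. Of all genes, 23.8% were called above 0 in this comparison and 7.65% below. The counts go by sign, so a gene that EGCG lowered further, as Tnfrsf8 in Th17p cells, counts as below 0. A gene that DHEA lowered further, as Tnfrsf8 in Th17n cells, counts as above 0. The counts were 7 and 2 in Th17p Total (24.7% and 9.34% of all genes), 4 and 1 in Th17n Div.1 (16.6% and 6.64%) and 3 and 2 in Th17n Total cells (18.1% and 8.49%). Rescaling shifted the median of all genes here by -0.11 in Th17p Div.1 and -0.10 in Th17p Total cells. It left 5 members called in Th17p Total cells, 3 higher and 2 lower, beside 1772 genes higher and 1669 lower of the 10672 tested. Cd70 and Tnfsf4 responded more to EGCG in both cell types and sorts. For Cd70 they were 2.60 ± 0.44 (SE, limma adjusted p = 2.68e-06) in Th17p Div.1, 3.74 ± 0.43 (SE, limma adjusted p = 7.18e-11) in Th17p Total, 1.75 (limma adjusted p = 0.00181) in Th17n Div.1 and 1.38 (limma adjusted p = 0.0107) in Th17n Total cells. For Tnfsf4 they were 2.37 ± 0.31 (SE, limma adjusted p = 3.86e-09), 2.96 ± 0.30 (SE, limma adjusted p = 9.05e-13), 3.02 (limma adjusted p = 5.31e-12) and 1.35 (limma adjusted p = 0.00029002) in the same order, and the last of them missed the threshold with 0.1 added in place of 1 (0.82 (limma adjusted p = 0.174)).

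Tnfrsf9 responded more to DHEA than to EGCG. The EGCG response minus the DHEA response was -1.46 ± 0.27 (SE, limma adjusted p = 1.46e-05) in Th17p Div.1 and -1.26 ± 0.26 (SE, limma adjusted p = 7.40e-05) in Th17p Total cells. It was -0.81 (limma adjusted p = 0.0207) in Th17n Div.1 cells, lost without DMSO replicate 3 or methanol replicate 9 (adjusted p up to 0.0914) and on the compared groups alone (adjusted p = 0.0895). In Th17n Total cells it was -0.81 (limma adjusted p = 0.0152), lost without EGCG replicate 4 or DMSO replicate 2 (adjusted p up to 0.0521) and with well A4 in its labelled group (adjusted p = 0.0632). Cd27 passed in Th17n Total cells, -1.12 ± 0.22 (SE, limma adjusted p = 7.02e-05), and its values elsewhere were -0.36 (limma adjusted p = 0.252) in Th17p Div.1, -0.29 (limma adjusted p = 0.343) in Th17p Total and -0.57 (limma adjusted p = 0.0625) in Th17n Div.1 cells. Tnfrsf8 differed with opposite signs by cell type: -0.76 (limma adjusted p = 0.00242) in Th17p Div.1 and -0.58 (limma adjusted p = 0.0166) in Th17p Total, where EGCG lowered it further, and 0.65 (limma adjusted p = 0.01395) in Th17n Div.1 and 1.91 (limma adjusted p = 1.15e-11) in Th17n Total cells, where DHEA did. The value in Th17n Div.1 cells was lost with well A4 in its labelled group (0.45 (limma adjusted p = 0.159)). Tnfsf8 responded more to EGCG in Th17p Total cells, 1.03 (limma adjusted p = 0.000182), a call lost with well A4 in its labelled group (adjusted p = 0.0528). In comparisons without Th17n DMSO Div.1 cells, here and below, well A4 leaves the log2 changes as they are. It acts there only through the estimate of spread shared by all groups. The difference of Tnfsf8 in Th17p Div.1 cells, 0.62 (limma adjusted p = 0.0351), was lost when any of 6 of the 19 libraries was left out (adjusted p up to 0.114) and under 4 of the 7 processing alternatives (adjusted p up to 0.305).

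**Figure D5:**
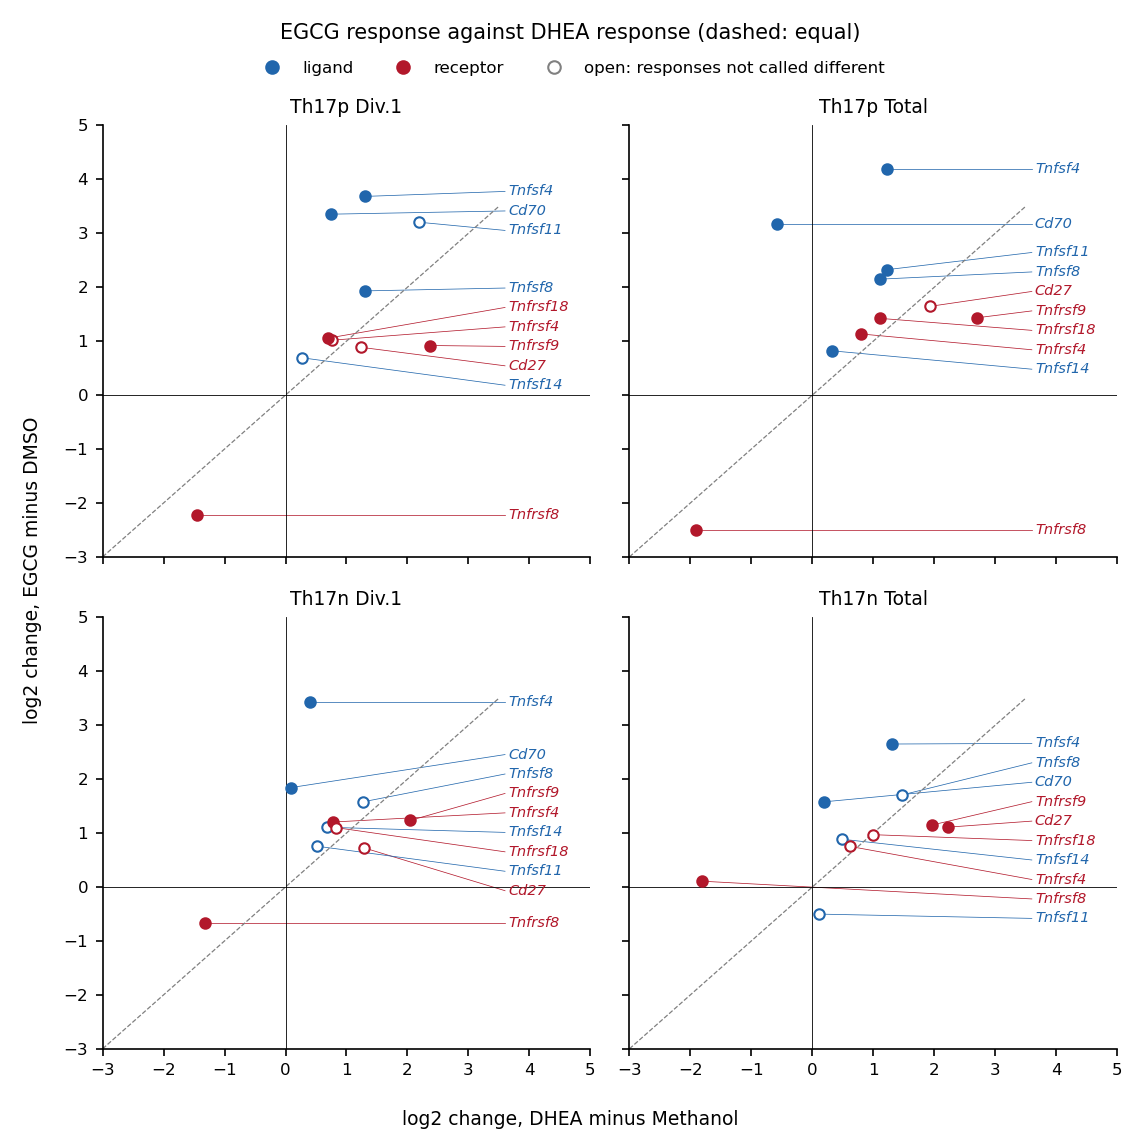
Log2 change with EGCG against log2 change with DHEA for each member, in each cell type and sort. Filled points are members whose 2 responses were called different, and the dashed line marks equal responses. Cd70 and Tnfsf4 lie on the EGCG side and Tnfrsf9 on the DHEA side.

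Other members also differed between the compounds in some cell types and sorts. In Th17p Total cells the differences were 1.11 (limma adjusted p = 0.0391) for Tnfsf11, 0.50 (limma adjusted p = 0.0161) for Tnfsf14, 0.33 (limma adjusted p = 0.0234) for Tnfrsf4 and 0.30 (limma adjusted p = 0.0261) for Tnfrsf18. That of Tnfsf11 was lost when any of 13 of the 20 libraries was left out (adjusted p up to 0.123) and under 5 of the 7 processing alternatives (adjusted p up to 0.0943). Rescaling by median ratios ended the other 3 calls, at 0.39 (limma adjusted p = 0.0659) for Tnfsf14, 0.21 (limma adjusted p = 0.123) for Tnfrsf4 and 0.18 (limma adjusted p = 0.183) for Tnfrsf18. Putting well A4 in its labelled group ended those of Tnfrsf4 (adjusted p = 0.155) and Tnfrsf18 (adjusted p = 0.236). That of Tnfrsf4 was also lost without DMSO replicate 1, DHEA replicate 8 or methanol replicate 10 (adjusted p up to 0.0533). That of Tnfrsf18 was also lost without EGCG replicate 5, DHEA replicate 6 or methanol replicate 10 (adjusted p up to 0.0676). Tnfrsf18 also passed in Th17p Div.1 cells, 0.36 (limma adjusted p = 0.01102), a call lost on rescaling (0.24 (limma adjusted p = 0.0953)) and with well A4 in its labelled group (adjusted p = 0.172). Tnfrsf4 passed in Th17n Div.1 cells, 0.43 (limma adjusted p = 0.00637), a value lost under 2 of the 7 processing alternatives (adjusted p up to 0.6196) and without DMSO replicate 1 (adjusted p = 0.0542).

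The response to EGCG also differed between the cell types. In Div.1 cells the response in Th17p minus that in Th17n was called above 0 for 2 members and below 0 for 1, beside 9.12% and 8.38% of all genes. In Total cells the counts were 5 and 1, beside 12.4% and 7.55%. Tnfsf11 had a difference of 2.45 ± 0.46 (SE, limma adjusted p = 4.85e-05) in Div.1 and 2.83 ± 0.43 (SE, limma adjusted p = 1.04e-06) in Total cells. Tnfrsf8 had -1.55 ± 0.21 (SE, limma adjusted p = 7.00e-08) in Div.1 and -2.60 ± 0.20 (SE, limma adjusted p = 1.71e-16) in Total cells, so it was lowered further in Th17p cells. Tnfsf4 differed in Total cells, by 1.54 ± 0.30 (SE, limma adjusted p = 7.15e-05), and by 0.26 (limma adjusted p = 0.663) in Div.1 cells, which did not pass and was of the other sign with 0.1 added in place of 1 (-0.99 (limma adjusted p = 0.151)). The differences of Cd70, 1.51 (limma adjusted p = 0.0126) in Div.1 and 1.58 (limma adjusted p = 0.00456) in Total cells, depended on the value added before the log, and with 0.1 they were 0.89 (limma adjusted p = 0.606) and 0.56 (limma adjusted p = 0.726). Without well columns 1 and 10 that in Total cells was 1.23 (limma adjusted p = 0.0506). Tnfrsf18 had 0.45 (limma adjusted p = 0.00165) and Tnfrsf4 0.38 (limma adjusted p = 0.0163) in Total cells. Both calls were lost with well A4 in its labelled group (adjusted p = 0.0953 for Tnfrsf18 and adjusted p = 0.145 for Tnfrsf4), and that of Tnfrsf4 was lost without Th17n EGCG replicate 1 (0.31 (limma adjusted p = 0.0612)). For Tnfsf8 the difference in Total cells, 0.44 (limma adjusted p = 0.173), did not pass, and with 0.1 added in place of 1 it was -1.16 (limma adjusted p = 0.0162), of the other sign.

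The response to DHEA differed between the cell types for 2 members in Div.1 cells, both larger in Th17p (of all genes, 6.49% were called larger and 9.39% smaller). It was larger in Th17p for 1 member in Total cells (8.06% and 6.73% of all genes). Tnfsf11 had 1.67 ± 0.43 (SE, limma adjusted p = 0.00373) in Div.1 cells and 1.12 (limma adjusted p = 0.0712) in Total cells. Tnfsf4 had 0.90 (limma adjusted p = 0.02605) in Div.1 cells, lost when any of 9 of the 20 libraries was left out (adjusted p up to 0.0869) and under 2 of the 7 processing alternatives (adjusted p up to 0.161). Tnfrsf9 had 0.74 (limma adjusted p = 0.0434) in Total cells, lost for 11 of 20 (adjusted p up to 0.113) and under 4 of the 7 processing alternatives (adjusted p up to 0.184).

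Some members also differed between cells sorted after 1 division and unsorted cells. With solvent alone, 3 members were higher and 1 lower in Th17p Div.1 than in Th17p Total cells, beside 8.63% of all genes called higher and 10.8% lower. In Th17n cells 1 was higher and 1 lower, beside 5.8% and 16.1%. Cd27 was higher in Div.1 cells of both types, by 0.57 ± 0.12 (SE, limma adjusted p = 0.000172) in Th17p and 0.55 ± 0.12 (SE, limma adjusted p = 0.000222) in Th17n cells. In Th17p cells with DMSO it stood at 35.99, 30.5, 31.1 and 36.5 TPM in Div.1, against 24.4, 16.9, 22.6, 18.04 and 20.3 TPM in Total cells. In Th17n cells with DMSO it stood at 18.4, 12.95, 19.8 and 12.6 TPM in Div.1, against 10.9, 8.399, 11.9, 8.12 and 12.3 TPM in Total cells. In Th17p cells Tnfrsf18 was higher by 0.34 (limma adjusted p = 9.65e-06) and Tnfrsf9 by 0.49 (limma adjusted p = 0.00574), and Tnfsf11 was lower, with a log2 change of -0.86 (limma adjusted p = 0.00347). Tnfsf11 stood at 6.66 to 16.5 TPM in methanol-treated Th17p Div.1 cells, against 13.04 to 23.8 TPM in Total cells, ranges that overlap. In Th17n cells Tnfrsf4 was lower, with a log2 change of -0.23 (limma adjusted p = 0.00374). That call was lost when the library of well A4 was put back in its labelled group (-0.09 (limma adjusted p = 0.553)) and on the compared groups alone (adjusted p = 0.0645).

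Between the sorts, the response to a compound was called different for at most 3 members. For EGCG in Th17p cells, 0 members differed by limma between Div.1 and Total (of all genes, 1.35% were called larger and 1.22% smaller), and 2 were under an unadjusted p of 0.05, Cd27 (-0.76) and Tnfrsf18 (-0.37). For EGCG in Th17n cells, the response in Div.1 minus that in Total was called above 0 for 2 members and below 0 for 1 (10.8% and 2.53% of all genes). Tnfrsf8 had -0.77 ± 0.20 (SE, limma adjusted p = 0.00616), since EGCG lowered it in Div.1 cells and its change in Total cells was not called. Tnfrsf4 had 0.45 (limma adjusted p = 0.00799), lost without DMSO Div.1 replicate 1 (0.34 (limma adjusted p = 0.0668)) and under 2 of the 7 processing alternatives (adjusted p up to 0.591), and Tnfsf11 1.26 (limma adjusted p = 0.0469), lost for 10 of 19 libraries (adjusted p up to 0.183) and under 4 of the 7 processing alternatives (adjusted p up to 0.179). For DHEA in Th17p cells, 1 responded more and 2 less in Div.1 cells (5.6% and 4.31% of all genes): Tnfrsf18 by -0.42 (limma adjusted p = 0.00807), Cd27 by -0.69 (limma adjusted p = 0.0348) and Cd70 by 1.33 (limma adjusted p = 0.03497). The call of Tnfrsf18 was lost with well A4 in its labelled group (adjusted p = 0.183). The call of Cd27 was lost under 2 of the 7 processing alternatives (adjusted p up to 0.0655) and for 9 of 20 libraries (adjusted p up to 0.0862) and that of Cd70 under 4 of the 7 processing alternatives (adjusted p up to 0.117) and for 10 of 20 (adjusted p up to 0.0917). For DHEA in Th17n cells, Cd27 alone passed (5.12% of all genes called larger and 1.68% smaller), with a difference in response of -0.93 ± 0.22 (SE, limma adjusted p = 0.00663) in Div.1 cells.

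Genes whose 16 group means were most like those of a member were found among 8031 genes tested, by Pearson's r on log2(TPM + 1). For Tnfsf4 these were Ei24 (0.99), Plxna1 (0.99) and Ccng1 (0.98), and for Cd70 they were Lzic (0.99), Ppp1r10 (0.98) and Tm2d3 (0.98). Tnfsf8 went with Gramd1b, Il15ra and Gfod1 (0.99 each), Tnfsf11 with Prkca and B3gnt2 (0.97 each) and Dusp2 (0.96), and Tnfsf14 with Il2 (0.99), Gpr171 and Il2rg (0.98 each). For both Tnfrsf4 and Tnfrsf18 the nearest were Cd69, Il2rg and Aig1, at 0.98 to 0.99. Tnfrsf9 was most like Cblb, Gata3 (0.99 each) and Gimap6 (0.98), Cd27 most like Slfn1, Traf3ip3 and Ifi27l2a (0.97 each), and Tnfrsf8 most like Psmc3, Yars and Eef1d (0.95 each). These values describe 16 means from 1 plate, picked as the highest of many.

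Other genes of the pathway were followed by lists of TNF ligands and receptors outside the 10 members, their adaptors, NF-kB genes, the Bcl2 family and the CD28 family. Of 7 other ligand genes tested, EGCG raised 5 and lowered 1 in Th17p Div.1, where 33.7% of all genes were called higher and 11.9% lower, and raised 4 and lowered 2 in Th17p Total cells, where 30.1% were called higher and 14.9% lower. Cd40lg, the CD40 ligand gene, was higher by 1.15 (limma adjusted p = 2.48e-12) in Div.1 and 1.26 (limma adjusted p = 7.90e-15) in Total cells. DHEA raised 4 and 3 of the 7 and lowered 0 in Th17p Div.1 and Total cells. Of all genes, 18.1% and 20.9% were called higher with DHEA, and 19.2% and 26.8% lower. Ltb, which encodes lymphotoxin beta, was higher with DHEA by 1.04 (limma adjusted p = 1.80e-09) and 1.83 (limma adjusted p = 4.40e-19). Of 16 other receptor genes, EGCG raised 8 and lowered 2 in Th17p Div.1, and raised 7 and lowered 1 in Th17p Total cells, beside the shares of all genes given for EGCG. The largest change among those named was that of Eda2r, 2.11 (limma adjusted p = 7.65e-21) in Total cells, and the death receptor gene Fas rose by 1.43 (limma adjusted p = 1.40e-15). Under DHEA 6 and 6 of the 16 rose and 0 and 1 fell in Th17p Div.1 and Total cells, beside the shares of all genes given for DHEA. Of 18 adaptor genes, 4 rose and 5 fell with EGCG in Th17p Div.1 cells, beside 33.7% of all genes called higher and 11.9% lower. In Th17p Total cells 5 rose and 3 fell, beside 30.1% and 14.9%. The median change of the adaptor genes was 0.01 in Th17p Total cells.

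Of 14 NF-kB genes, EGCG raised 11 and lowered 1 in Th17p Div.1, and raised 10 and lowered 1 in Th17p Total cells. Of all genes, 33.7% were called higher and 11.9% lower in Div.1, and 30.1% and 14.9% in Total cells, shares that also stand beside the next 2 families. The inhibitor gene Nfkbia was higher by 0.94 (limma adjusted p = 2.59e-16) in Div.1 and 0.69 (limma adjusted p = 2.76e-12) in Total cells, and the subunit gene Nfkb2 by 0.48 (limma adjusted p = 6.58e-09) and 0.56 (limma adjusted p = 1.42e-11). Of 12 Bcl2 family genes, EGCG raised 8 and lowered 1 in Th17p Div.1, and raised 8 and lowered 0 in Th17p Total cells. Those named by the smallest p included the death-promoting Bax (1.13 (limma adjusted p = 6.53e-24)), Pmaip1 (1.76 (limma adjusted p = 5.80e-15)) and Bbc3 (1.09 (limma adjusted p = 2.66e-06)), and the survival gene Mcl1 (0.39 (limma adjusted p = 8.44e-07)), all in Total cells. With DHEA the survival gene Bcl2 itself rose, by 1.24 (limma adjusted p = 1.53e-13) in Th17p Div.1 and 1.75 (limma adjusted p = 4.14e-20) in Th17n Total cells. Of 9 CD28 family genes, EGCG raised 6 and lowered 1 in Th17p Div.1, and raised 5 and lowered 0 in Th17p Total cells, with Cd80 higher by 2.02 (limma adjusted p = 2.87e-21) and Pdcd1, the PD-1 gene, by 1.07 (limma adjusted p = 4.48e-16) in Total cells. DHEA lowered Pdcd1 in Th17p cells, with log2 changes of -0.62 (limma adjusted p = 6.57e-08) in Div.1 and -0.77 (limma adjusted p = 8.15e-11) in Total, and raised Ctla4 by 1.39 (limma adjusted p = 2.52e-16) and 1.23 (limma adjusted p = 7.65e-15).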

How the data were processed

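RNA was measured in 79 libraries by RNA-seq, and 78 were used. Per the submitters' processing notes, Trimmomatic was used for trimming, and kallisto for quantification with mm10. Versions and settings were not given in the sources used here. The authors deposited 1 table of TPM for 20465 gene symbols, and its columns summed to 880077 to 895017. The step from transcripts to symbols is not given in the sources used here, and reads shared by related genes could not be resolved. TPM keep no read counts, so the depth behind a value was unknown and no counting interval was given.

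Groups were taken from the library titles, with the well column as replicate number. Well A4, whose label breaks the plate layout, was kept out. Members, gene lists, comparisons and alternatives were chosen with earlier results of these data known. Values were taken as log2(TPM + 1), and 10672 genes with at least 1 TPM in at least 4 libraries were tested, all 10 members among them. The fit had 16 group means and used limma 3.58.1 under R 4.3.3, moderated with a trend on mean level. Tests were two-sided in 24 comparisons, Benjamini-Hochberg adjusted over all genes within each comparison and not across them, and called at an adjusted p under 0.05. Solvent groups were averaged for the comparisons of cell types and of sorts. The procedure was tested on simulated data. The 152 pairs of libraries within groups correlated at 0.976 to 0.993 across genes, and none were identical.

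All members and their partner genes were named, along with up to 4 called genes with the smallest p per list and the 3 genes most like each member with a highest group mean of at least 5 TPM. Not all of these list genes are printed, and those printed were picked with values in view. Marker lists were summed in TPM over the genes used, 6 of 7 for T helper cells and 8 of 10 for dendritic cells and macrophages, and 1 other marker gene is not reported here. Promoter windows of 250 bases came from RefSeq (GRCm38.p6) and gene positions from GENCODE (mm10). Alternatives were 0.1 added before the log, no filter, median-ratio rescaling, a fit on the compared groups alone, the well column as a block, well A4 in its labelled group, no wells of columns 1 and 10, and each library left out in turn.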

Additional observations from a re-analysis of the deposited data

Results flagged for a closer look

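In 6 of 160 groups of 4 or 5 values, 1 library stood far from the others, and chance alone gives about 1 in 20 such groups. These were Tnfsf4 at 1.32 TPM in Th17p DMSO Total replicate 4, Tnfsf11 at 0.411 TPM in Th17n EGCG Total replicate 1, Tnfsf14 at 17.5 TPM in Th17n DMSO Total replicate 3, Cd70 at 7.81 TPM in Th17n EGCG Total replicate 5, Tnfrsf9 at 24.3 TPM in Th17p Methanol Div.1 replicate 10 and Cd27 at 38.5 TPM in Th17p Methanol Total replicate 10. The Tnfsf4 and Tnfsf11 libraries were low and the other 4 high.

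The response to a compound differed between cell types or sorts for 19 member results by limma at an adjusted p under 0.05. On the log2 scale, the EGCG response in Th17p minus that in Th17n was 2.45 for Tnfsf11, 1.51 for Cd70 and -1.55 for Tnfrsf8 in Div.1 cells. In Total cells it was 2.83 for Tnfsf11, 1.58 for Cd70, 1.54 for Tnfsf4, 0.45 for Tnfrsf18, 0.38 for Tnfrsf4 and -2.60 for Tnfrsf8. The DHEA response in Th17p minus that in Th17n was 1.67 for Tnfsf11 and 0.90 for Tnfsf4 in Div.1 cells, and 0.74 for Tnfrsf9 in Total cells. The EGCG response in Div.1 minus that in Total was 1.26 for Tnfsf11, 0.45 for Tnfrsf4 and -0.77 for Tnfrsf8 in Th17n cells. The DHEA response in Div.1 minus that in Total was 1.33 for Cd70, -0.42 for Tnfrsf18 and -0.69 for Cd27 in Th17p cells, and -0.93 for Cd27 in Th17n cells.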

How the results depend on the processing

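When each library was left out in turn, 3744 member results kept their side of the threshold, 90 lost a call, 46 gained one and 0 reversed. In all 8 compound comparisons and both comparisons of cell types, the number of members called stayed within 1.5 times its value under every alternative. The differences between responses were less steady. Leaving out single libraries, the number called ran from 5 to 7 for the EGCG response between cell types in Total (6 called with all libraries), 0 to 2 for DHEA in Total (1), 1 to 2 for DHEA in Div.1 (2), 0 to 1 for EGCG between sorts in Th17p (0), 1 to 4 for EGCG between sorts in Th17n (3), 1 to 3 for DHEA between sorts in Th17p (3), 1 to 3 for DHEA between sorts in Th17n (1), and 6 to 9 for EGCG against DHEA in Th17p Total cells (9). On the compared groups alone, 7 members were called between sorts in Th17p cells and 1 in Th17n cells, 2 and 1 for the DHEA response between cell types in Total and Div.1, and 2 and 1 for the EGCG response between sorts in Th17p and Th17n. With 0.1 added before the log, 1 was called for DHEA between cell types in Div.1 and 2 for DHEA between sorts in Th17n, and Tnfsf8 reversed in the EGCG response between cell types in Total cells, to -1.16 (limma adjusted p = 0.0162) from 0.44. Without a filter, 0 were called for DHEA between cell types in Total and 1 for DHEA between sorts in Th17p. Rescaling gave 2 for the EGCG response between sorts in Th17p, 2 for DHEA in Th17n and 5 for EGCG against DHEA in Th17p Total cells. With well A4 in its labelled group the counts were 0 for DHEA between cell types in Total, 1 for EGCG between sorts in Th17n, 1 for DHEA between sorts in Th17p and 5 for EGCG against DHEA in Th17p Total. Without well columns 1 and 10, 1 was called for EGCG between sorts in Th17p and 2 for DHEA between sorts in Th17n. The causes were not tested.

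By a rule that every same-numbered pair of a comparison correlate above 0.1 in its deviations, 0 of 16 comparisons counted as paired by well column. Failing this rule does not show that the libraries were independent. In every comparison the median for same-numbered libraries was above that for different numbers. Correlations of same-numbered libraries ran from -0.0016 to 0.315. Their medians within a comparison were 0.049 to 0.135, against -0.039 to -0.010 for libraries of different numbers. What a shared well column stands for was not tested. Of 74 same-numbered pairs, 59 correlated best with their own number, a hint from the data and not the design. With the column as a replicate block, 20 calls were gained and 0 lost. The block gave 2 for the DHEA response between cell types in Total, 3 for the EGCG response between sorts in Th17p and 2 for DHEA between sorts in Th17n. Tnfsf11 in Th17n cells then passed with DHEA in Div.1, at 0.52 (limma adjusted p = 0.00329), and with EGCG, at 0.72 (limma adjusted p = 0.000145) in Div.1 and -0.50 (limma adjusted p = 0.004399) in Total. Unknown depth limits the members at low TPM most, Tnfsf4, Tnfsf8, Tnfsf11 and Cd70 in Th17n cells.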

Other observations

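Summed over the 5 ligand genes, EGCG-treated Th17p cells held 253 to 316 TPM in Div.1, against 51.99 to 64.7 TPM with DMSO. The 5 receptor genes summed to 1807 to 2022 TPM in the EGCG libraries, against 949 to 1026 TPM with DMSO. Neither sum overlapped between the treatments.

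Outside the 10 members, Lta and Tnfrsf13b ran opposite to them between the cell types. They were picked with values in view, and counts over the other ligand and receptor genes are not given here. Of all genes, 25.7% were called lower in Th17p Div.1 and 26.5% in Th17p Total cells. The ligand gene Tnfsf9 was higher in Th17p cells, by 1.38 (limma adjusted p = 2.48e-19) in Div.1 and 1.22 (limma adjusted p = 3.95e-18) in Total cells. Lta, which encodes lymphotoxin alpha, was lower in Th17p than in Th17n cells with solvent, with log2 differences of -3.59 (limma adjusted p = 1.78e-46) in Div.1 and -3.79 (limma adjusted p = 1.44e-49) in Total cells. Tnfrsf13b, which encodes TACI, was lower too, at -3.81 (limma adjusted p = 2.82e-56) and -3.71 (limma adjusted p = 2.45e-57). All 10 members were higher in Th17p cells.

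Some well columns were extreme for a member in most rows of the plate. Among the 8 groups with EGCG or DMSO, column 1 held the lowest Tnfsf11 in 8, the lowest Tnfrsf18 in 7 and the lowest Tnfrsf4 in 6. Among the 8 groups with DHEA or methanol, column 10 held the highest Tnfrsf4 in 7. The labels do not say what a well column stands for.

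The library of well A4, labelled Th17n DMSO Div.1, lay outside the range of the 4 other libraries of that label for 10 of 10 members. A range of 4 libraries is narrow, and the share over all genes is not given here. For Tnfrsf4 and Tnfrsf8 the levels in well A4 were as follows. It held 698 TPM of Tnfrsf4, where Th17p libraries of that treatment and sort held 654 to 708 TPM and Th17n libraries 211 to 335 TPM. Its Tnfrsf8 was 31.6 TPM, below the 33.1 to 45.1 TPM of the Th17p libraries and above the 13.4 to 17.8 TPM of the Th17n libraries. Its Tnfsf4 was 0.806 TPM, nearer to the 0.251 to 0.570 TPM of Th17n than to the 3.03 to 5.16 TPM of Th17p libraries.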
